A study of Oryza sativa with 6 samples.

Results

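The 9 genes described here encode the enzymes with which rice builds glutamine, glutamate and asparagine from ammonium. They were chosen by locus identifier and comprise 4 glutamine synthetase genes, 3 glutamate synthase genes and 2 asparagine synthetase genes, out of 37863 loci in the count table. All 9 were in the table and all 9 passed the filter on low counts, with which 24615 loci were tested. Root RNA was sequenced from rice (Oryza sativa, cultivar Kitaake) grown together with the floating fern Azolla filiculoides (co-cultivated, 3 libraries) and from rice grown alone (control, 3 libraries). In both groups, 13-day-old seedlings were moved into hydroponic boxes of 4 plants in about 5 L of Yoshida's nutrient solution, without aeration. The distal root ends, up to 1 cm from the apex, were taken 15 days after transplanting (DAT). Dying fern was replaced during growth. Control boxes had a covered surface to keep algae out, so fern and cover cannot be told apart as differences between the groups. Per the labels, boxes were the replicate unit and each group had 3 biological replicates. The question addressed is what living beside the fern does to transcript levels in rice roots.

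Glutamine synthetase joins ammonium to glutamate to make glutamine. Glutamate synthase (GOGAT) then passes the amide nitrogen of glutamine to 2-oxoglutarate, so that each turn of the pair gives a net glutamate, and asparagine synthetase moves amide nitrogen from glutamine to aspartate. Rice roots take up much of their nitrogen as ammonium, which Yoshida's solution supplies along with nitrate. In rice roots the cytosolic enzyme GS1;2 and the plastid enzyme NADH-GOGAT1 are known as the main ammonium assimilation pair, and ASN1 as the main asparagine synthetase.

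Library totals ran from 23477086 to 25120456 estimated counts in the co-cultivated group and from 21551508 to 23703813 in the control group. The 20 most abundant loci of a library held 5.13% to 5.72% of its counts in the co-cultivated group and 5.81% to 7.85% in the control group. Between libraries of the same group, the mean chi-square of a locus, which sampling noise alone puts near 1, was 21.7 to 48.9 among co-cultivated libraries and 42.6 to 113 among control libraries, with the highest value between control replicates 2 and 3. All 6 root markers were detected. Their summed level ran from 3240 to 5273 CPM (counts scaled to a common library size) in co-cultivated libraries and from 1477 to 2302 CPM in control libraries. The 3 root hair markers summed to 33.0 to 78.4 CPM in co-cultivated libraries and to 16.1 to 22.3 CPM in control libraries. Neither sum overlapped between the groups. By gene, RCc3, LSI1 and LSI2 of the root list did not overlap, nor did CSLD1 and EXPA17 of the root hair list. All 5 were higher in co-cultivated libraries. Over all tested loci, 12.4% were higher without overlap, and 27.7% did not overlap in either direction. SHR1, SCR1, QHB and RHL1 overlapped, SHR1 with a log2 fold change of −0.20. Of these 9 markers, edgeR and limma-voom called 0, against 2.63% and 2.27% of all tested loci. DESeq2 called 5 of 9, against 8.82% of loci, and 5 of 9 had an unadjusted edgeR p under 0.05, against 20.4%. The 7 markers of green shoot tissue summed to 2.79 to 25.0 CPM in co-cultivated and 12.1 to 28.2 CPM in control libraries, most of it CAB1R. All 6 of them that were tested had negative log2 fold changes, from −2.65 to −0.55. RBCS3 and RBCS4 did not overlap between the groups and were the 2 with an unadjusted edgeR p under 0.05. They held few reads, at most 15 and 19 counts in a library. By edgeR, DESeq2 and limma-voom, 0 of the green shoot markers were called. The part of these 3 marker lists in the results was not tested. In bulk RNA, fewer cells of a type and less RNA per cell cannot be told apart.

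The levels of 8 of the 9 genes overlapped between co-cultivated and control root tips. NADH-GOGAT2 stood apart, with about 3 times as many transcripts beside the fern. It held few reads, at most 177 counts in a library, and narrowly missed the threshold over all loci. By edgeR, 0 of the 9 genes passed an adjusted p of 0.05, against 2.63% of all tested loci. At an unadjusted p under 0.05 there was 1 of 9, against 20.4% of loci. DESeq2 called 1 of 9, against 8.82% of loci, and limma-voom 0 of 9, against 2.27%. In both counts of 1 the gene was NADH-GOGAT2. It was also the 1 gene of the 9 whose groups did not overlap, against 27.7% of all loci, or 12.4% counting those that were higher in the co-cultivated group. A count of 1 among 9 is near this last share, so it does not set the 9 genes apart from other loci. The median log2 fold change of co-cultivated over control was 0.14 over the 9 genes and −0.03 over all tested loci, with 5 of the 9 positive and 4 negative. Levels are given in CPM with TMM scaling and are not divided by transcript length, so they compare libraries for 1 gene and not genes with each other.

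**Figure D1:**
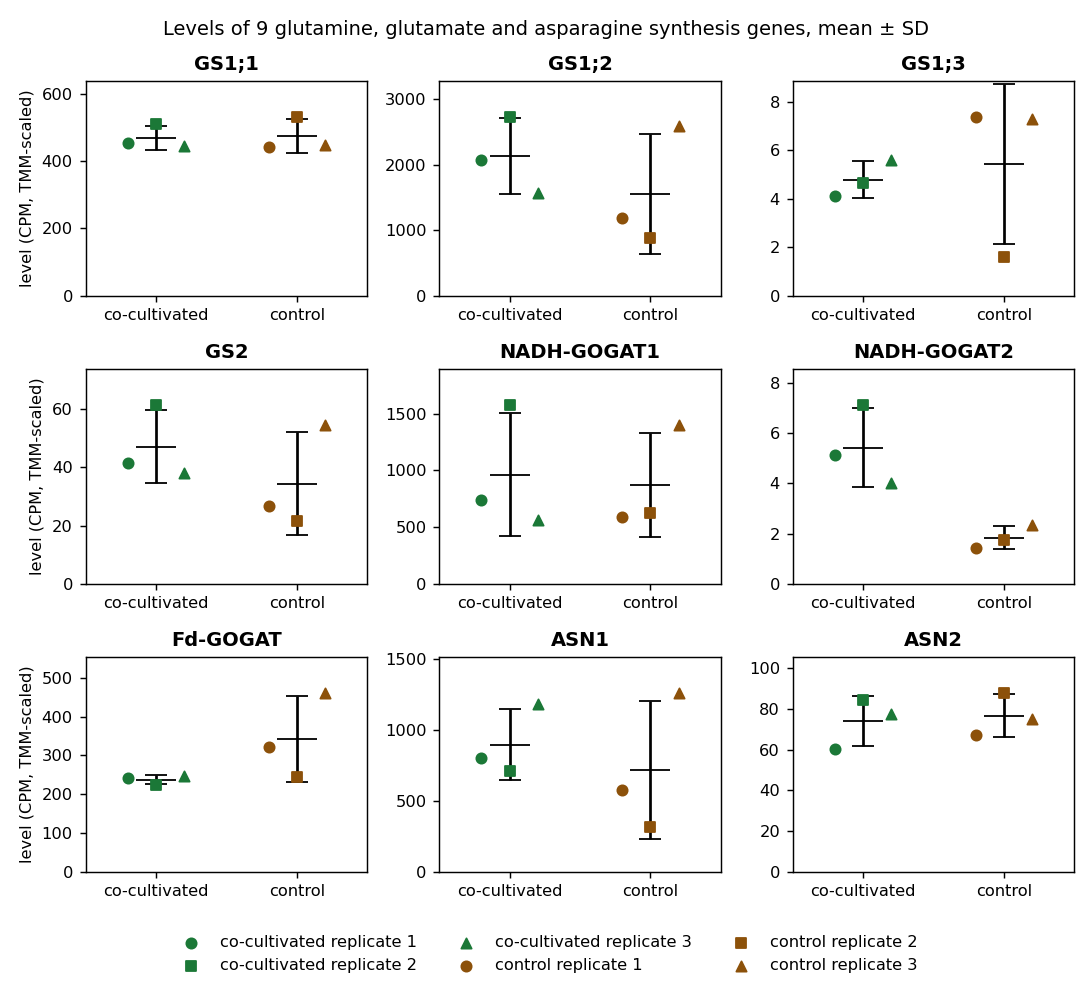
Level of each of the 9 genes in CPM (vertical axis, from 0) in the 3 co-cultivated and the 3 control libraries, with symbols for replicates 1 to 3 and bars for the mean ± SD. The groups separate for NADH-GOGAT2, at 4.03 to 7.13 CPM in co-cultivated and 1.44 to 2.32 CPM in control libraries, and overlap for the other 8 genes.

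Among the glutamine synthetase genes, GS1;2 (Os03g0223400, chromosome 3) encodes the cytosolic isoenzyme that rice roots raise on ammonium supply. It stood at 2071, 2731 and 1574 CPM in co-cultivated replicates 1, 2 and 3, and at 1184, 876 and 2597 CPM in control replicates 1, 2 and 3. Control replicates 1 and 2 lay below all co-cultivated libraries, but control replicate 3 was the second highest of all 6. The means were 2125 ± 580.0 CPM in the co-cultivated group and 1552 ± 918 CPM in the control group (SD, n = 3 each). The log2 fold change was 0.45 ± 0.44 (SE), a fold of 1.37 with a 95% interval of 0.672 to 2.79, and edgeR's adjusted p was 0.604. The direction held whichever library was left out, but the size did not, since the log2 fold change was 1.04 without control replicate 3 and 0.17 without control replicate 2.

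GS2 (Os04g0659100, chromosome 4), the plastid isoenzyme best known from leaves, where it takes up ammonium released by photorespiration, had nearly the same profile. It stood at 41.7, 61.6 and 38.1 CPM in co-cultivated replicates 1 to 3, against 26.8, 21.6 and 54.6 CPM in control replicates 1 to 3. As with the cytosolic gene, control replicate 3 was high and control replicate 2 lowest. Its log2 fold change was 0.46 ± 0.37 (SE, edgeR adjusted p = 0.529), a fold of 1.37 with a 95% interval of 0.756 to 2.49. It was 0.96 without control replicate 3 and 0.21 without control replicate 2.

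GS1;1 (Os02g0735200, chromosome 2), the cytosolic isoenzyme expressed throughout the rice plant, was the steadiest glutamine synthetase gene across the boxes. It stood at 454, 511 and 446 CPM in co-cultivated replicates 1 to 3 and at 443, 532 and 448 CPM in control replicates 1 to 3. Replicate 2 was highest in both groups, and the groups covered nearly the same range. Co-cultivated over control, the log2 fold change was −0.01 ± 0.17 (SE, edgeR adjusted p = 0.973), and the 95% interval of the fold ran from 0.754 to 1.30. Its sign changed with the scaling, with RLE size factors giving 0.0069.

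GS1;3 (Os03g0712800, chromosome 3), known in rice as the spikelet isoenzyme, held few reads, with 93, 115 and 142 counts in co-cultivated replicates 1 to 3 and 169, 35 and 173 in control replicates 1 to 3. Control replicate 2 was far below the other control libraries, at 1.61 CPM against 7.37 and 7.30 CPM. The co-cultivated libraries, at 4.11 to 5.61 CPM, lay between these values. Between the groups the log2 fold change was −0.18 ± 0.52 (SE, edgeR adjusted p = 0.876), with a 95% interval of the fold of 0.380 to 2.04. It was −0.62 without control replicate 2, and 0.10 and 0.09 without control replicates 1 and 3.

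NADH-GOGAT2 (Os05g0555600, chromosome 5), an NADH-dependent glutamate synthase known in rice mainly from the vascular tissue of mature leaves, gave the clearest difference of the 9. Its estimated counts were 116, 177 and 102 in co-cultivated replicates 1 to 3, against 33.0, 38 and 55 in control replicates 1 to 3. Scaled, these were 5.13, 7.13 and 4.03 CPM in the co-cultivated group and 1.44, 1.75 and 2.32 CPM in the control group. All 3 co-cultivated libraries lay above all 3 control libraries. The means were 5.43 ± 1.57 CPM in co-cultivated and 1.84 ± 0.447 CPM in control libraries (SD, n = 3 each). The log2 fold change was 1.56 ± 0.32 (SE), a fold of 2.95 with a 95% interval of 1.77 to 4.93. The unadjusted p was 0.00149 and the adjusted p by edgeR 0.0525, and 2.82% of tested loci had a smaller p. DESeq2 called it (log2 fold change 1.58 ± 0.36, adjusted p = 0.000440), as did edgeR with no filter on low counts (adjusted p = 0.0477). The other 14 alternatives did not, with adjusted p of 0.0512 to 0.175, while the log2 fold change stayed between 1.31 and 1.77 over all alternatives.

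NADH-GOGAT1 (Os01g0681900, chromosome 1), the NADH-dependent enzyme of rice root tips and surface cell layers, varied more between boxes than between groups. It stood at 736, 1576 and 565 CPM in co-cultivated replicates 1 to 3, against 586, 627 and 1397 CPM in control replicates 1 to 3. A single library in each group was high, co-cultivated replicate 2 and control replicate 3, and the remaining 4 lay between 565 and 736 CPM. The means were 959 ± 542 CPM in the co-cultivated group and 870.1 ± 457 CPM in the control group (SD, n = 3 each). With all libraries the log2 fold change was 0.14 ± 0.49 (SE), with an edgeR adjusted p of 0.900 and a 95% interval of the fold of 0.50 to 2.43. Leaving out co-cultivated replicate 2 gave −0.42 and leaving out control replicate 3 gave 0.66, and it was also negative without control replicate 1 or 2, at −0.08 and −0.05.

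Fd-GOGAT (Os07g0658400, chromosome 7), which takes its electrons from ferredoxin and is the main glutamate synthase of green leaves, was the gene with the lowest fold change. Its levels were 241, 225 and 248 CPM in co-cultivated replicates 1 to 3, against 320.3, 244 and 461 CPM in control replicates 1 to 3. The co-cultivated libraries lay close together, and control replicate 2 lay among them while the other control libraries were higher. The means were 238 ± 11.9 CPM in co-cultivated and 342 ± 110.0 CPM in control libraries (SD, n = 3 each). The log2 fold change was −0.52 ± 0.24 (SE), a fold of 0.696 with a 95% interval of 0.469 to 1.03, and edgeR's adjusted p was 0.278. It was −0.25 without control replicate 3 and −0.72 without control replicate 2. The 6 tested green shoot markers also had negative log2 fold changes, and their part in this value was not tested.

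ASN1 (Os03g0291500, chromosome 3), the asparagine synthetase that rice roots induce on ammonium, stood at 799, 706 and 1181 CPM in co-cultivated replicates 1 to 3. In control replicates 1 to 3 it stood at 575, 316 and 1258 CPM. Control replicates 2 and 3 were the lowest and the highest of all 6 libraries, and the co-cultivated libraries lay between them. The means were 895 ± 252 CPM in co-cultivated and 717 ± 487 CPM in control libraries (SD, n = 3 each). Over all libraries the log2 fold change was 0.32 ± 0.49 (SE, edgeR adjusted p = 0.753), with a 95% interval of the fold of 0.567 to 2.76. It was 1.01 without control replicate 3 and −0.04 without control replicate 2.

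ASN2 (Os06g0265000, chromosome 6), the asparagine synthetase known mainly from rice leaves, was steady. It stood at 60.5, 84.7 and 77.5 CPM in co-cultivated replicates 1 to 3 and at 67.2, 88.0 and 75.2 CPM in control replicates 1 to 3. The groups covered almost the same range. Its log2 fold change was −0.05 ± 0.18 (SE, edgeR adjusted p = 0.905), with a 95% interval of the fold of 0.724 to 1.29.

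**Figure D2:**
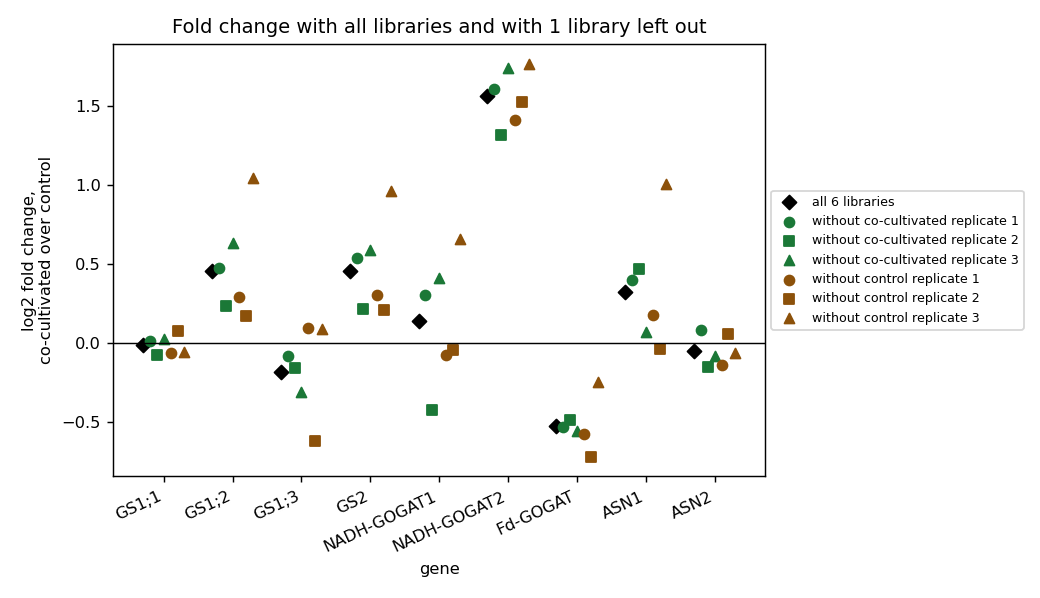
Log2 fold change of co-cultivated over control (vertical axis) for each of the 9 genes, with all 6 libraries (black diamond) and with each library left out in turn (green for a co-cultivated library, brown for a control library, symbols for replicates 1 to 3). NADH-GOGAT2 stayed between 1.31 and 1.77, while GS1;2, GS2 and ASN1 were highest without control replicate 3, at 1.04, 0.96 and 1.01.

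The spread between boxes of a group was wide for several of these genes. The highest control library exceeded the lowest by 4.58-fold for GS1;3, 3.98-fold for ASN1, 2.97-fold for GS1;2, 2.53-fold for GS2 and 2.38-fold for NADH-GOGAT1. The median of this fold over 22127 loci with a mean of at least 1 CPM was 1.49 in the control group and 1.33 in the co-cultivated group. The share of those loci with a smaller fold among control libraries was 96.1% for GS1;3, 95.1% for ASN1, 90.6% for GS1;2, 85.9% for GS2 and 84.0% for NADH-GOGAT1. GS1;1 and ASN2 were at the other end, at 17.9% and 31.9%. In the co-cultivated group NADH-GOGAT1 had the widest fold of the 9, at 2.79, above that of 95.2% of loci, and Fd-GOGAT the narrowest, at 1.10, above that of 10.6%. The fold was wider in the control group for 6 of the 9 genes. Control replicate 3 was the highest control library for 6 of the 9 and control replicate 2 the lowest for 5. The same counts were not made over all tested loci, so this order cannot be called particular to the 9 genes. Together the 9 genes held 0.425%, 0.584% and 0.421% of all counts in co-cultivated replicates 1 to 3. In control replicates 1 to 3 they held 0.327%, 0.273% and 0.630%.

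The profiles of some genes ran together over the 6 libraries. Likeness was measured as the root mean square difference of 2 log2 CPM profiles, each centred on its own mean over the 6 libraries, among the 9 genes and 29 neighbouring pathway loci. The closest pair of the 9 was GS1;2 and GS2, which differed by 0.10 while each varied by 0.59 and 0.53 around its own mean. Both were lowest in control replicate 2, followed by control replicate 1, and highest in co-cultivated replicate 2 and control replicate 3. NADH-GOGAT1 shared these last 2 high libraries and differed from GS2 by 0.34, and its nearest profile was that of the alanine aminotransferase locus listed as AlaAT1 (Os10g0390500), at 0.32. GS1;1 and ASN2 were each other's nearest, at 0.13, both with small variation around their means (0.11 and 0.19). Their difference exceeded the variation of GS1;1 itself, so the pair shows 2 steady genes and not a shared pattern.

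ASN1 was nearest to the phosphoenolpyruvate carboxylase locus listed as PPC4 (Os01g0208700), at 0.31, and GS1;3 to the glutamate decarboxylase locus listed as GAD2 (Os04g0447800), at 0.42. The nearest profile to Fd-GOGAT was the locus listed as AlaAT2 (Os07g0108300), at 0.21. NADH-GOGAT2 was nearest to the asparaginase locus listed as ASNase1 (Os04g0650700), at 0.33. The profiles of NADH-GOGAT1 and NADH-GOGAT2 differed by 0.76. These differences over 6 libraries describe the profiles and include the difference between the groups. They were not set against distances between loci outside the lists.

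**Figure D3:**
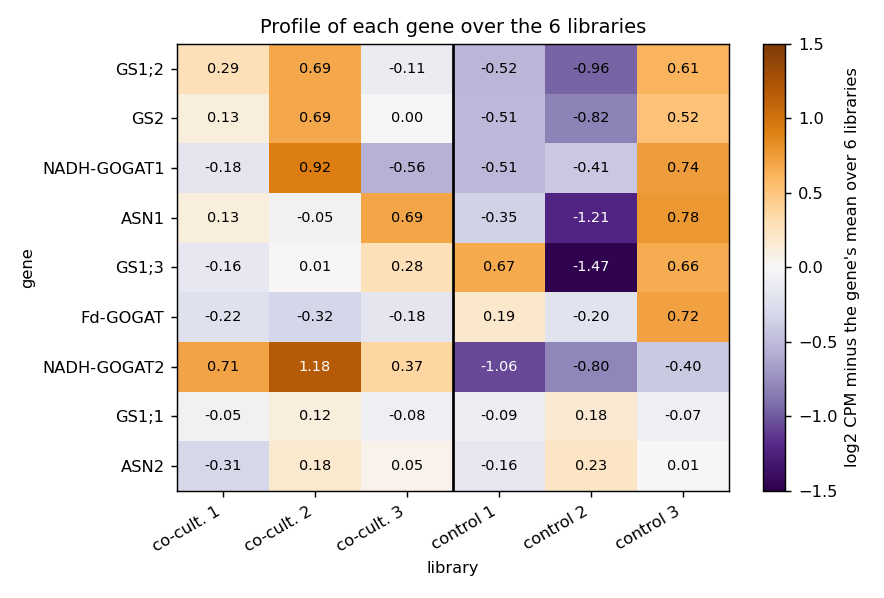
Log2 CPM of each of the 9 genes minus its own mean over the 6 libraries (colour and printed number, purple low and orange high), with co-cultivated libraries left of the black line and control libraries right of it. GS1;2 and GS2 share 1 pattern, lowest in control replicate 2 at −0.96 and −0.82, and NADH-GOGAT2 is positive in all 3 co-cultivated and negative in all 3 control libraries.

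Ratios of related genes within a library do not depend on scaling between libraries. Gene length is not removed from them, so what can be read is how a ratio differs between libraries. With 3 libraries against 3, the smallest p of the exact two-sided permutation test is 0.1, so 0 of the 5 ratios tested could pass 0.05. NADH-GOGAT1 held 142, 220 and 139 counts per count of NADH-GOGAT2 in co-cultivated replicates 1 to 3, against 396, 350 and 591 in control replicates 1 to 3. The groups did not overlap. The mean log2 ratio was 7.35 ± 0.37 in the co-cultivated and 8.76 ± 0.40 in the control group (SD, n = 3 each), a difference of −1.41 (exact permutation p = 0.1, adjusted over 5 ratios 0.5). With 1 library left out the difference ran from −1.63 to −1.19. The ratio comes from the same counts as the log2 fold changes of 0.14 for NADH-GOGAT1 and 1.56 for NADH-GOGAT2. Its separation therefore restates the NADH-GOGAT2 difference and is not a further result.

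The other 4 ratios overlapped between the groups. GS1;2 to GS1;1 stood at 4.57, 5.34 and 3.53 in co-cultivated replicates 1 to 3, against 2.67, 1.65 and 5.79 in control replicates 1 to 3, a difference in mean log2 ratio of 0.59 (exact permutation p = 0.4). The summed cytosolic genes to GS2 stood at 60.6, 52.7 and 53.1 in co-cultivated replicates 1 to 3 and at 60.9, 65.1 and 55.8 in control replicates 1 to 3. This was the steadiest of the 5 ratios, with a difference of −0.13 in mean log2 ratio (exact permutation p = 0.2) and SDs of 0.11 in each group. NADH-GOGAT1 to Fd-GOGAT stood at 3.06, 7.02 and 2.28 in co-cultivated replicates 1 to 3, against 1.83, 2.57 and 3.03 in control replicates 1 to 3, with a difference of 0.59 (exact permutation p = 0.4). That difference was 0.12 without co-cultivated replicate 2. ASN1 to ASN2 stood at 13.2, 8.33 and 15.2 in co-cultivated replicates 1 to 3, against 8.54, 3.60 and 16.7 in control replicates 1 to 3, with a difference of 0.57 (exact permutation p = 0.7) that was −0.01 without control replicate 2. Adjusted over the 5 ratios, these p were 0.5 to 0.7.

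**Figure D4:**
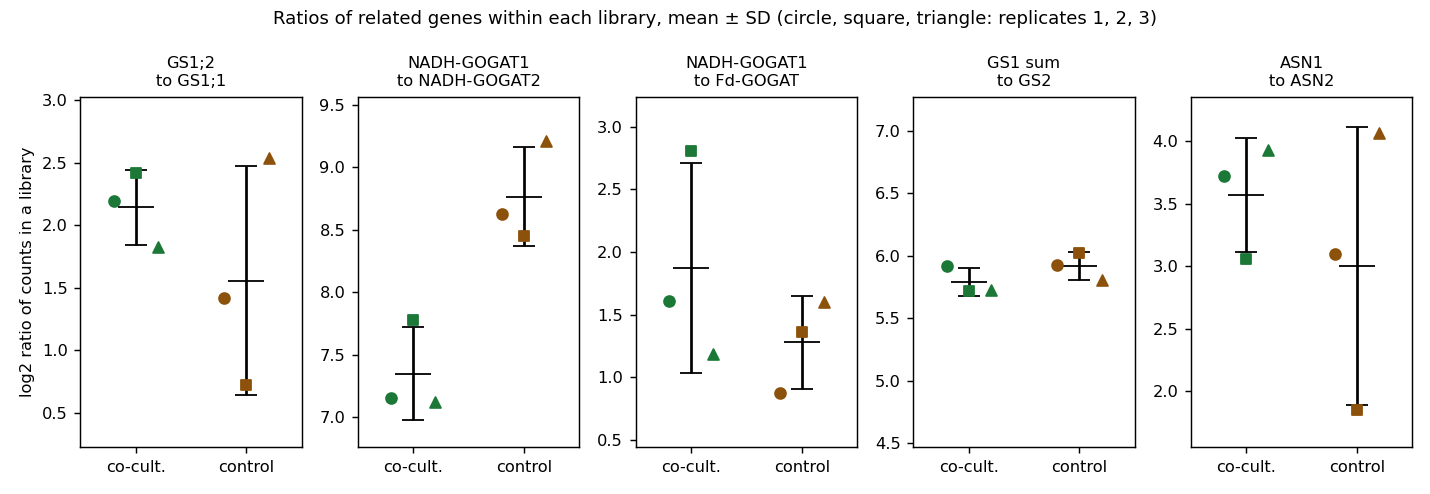
Log2 ratio of the counts of related genes within each library (vertical axes, each panel with its own range of the same length) in the 3 co-cultivated and 3 control libraries, with symbols for replicates 1 to 3 and bars for the mean ± SD. The groups separate for NADH-GOGAT1 to NADH-GOGAT2, at 7.35 against 8.76 on average, and overlap in the other 4 panels.

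The loci that supply or use the products of these enzymes were read from a list of 30, of which 29 were tested. The calls were 3 higher and 1 lower, against 1.46% and 1.17% of all tested loci. The median log2 fold change was 0.41, with 23 positive and 6 negative. Over all tested loci 11646 were positive and 12969 negative. The nitrate reductase locus listed as NIA2 (Os02g0770800) rose, with 6861, 6601 and 4413 counts in co-cultivated replicates 1 to 3 and 195, 88 and 136 in control replicates 1 to 3 (log2 fold change 5.34 ± 0.37, SE, edgeR adjusted p = 0.00149). The next enzyme, nitrite reductase, is listed as NIR1 (Os01g0357100). It makes the ammonium that glutamine synthetase takes up and stood at 1375, 1028 and 937 CPM in co-cultivated replicates 1 to 3, against 509, 384 and 558 CPM in control replicates 1 to 3. The groups did not overlap, with an edgeR adjusted p of 0.0512 and a 95% interval of the log2 fold change of 0.64 to 1.77.

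The kinase locus listed as ACTPK1 (Os02g0120100), known in rice for restraining ammonium uptake by phosphorylating a transporter, fell. It stood at 95.5, 62.0 and 80.6 CPM in co-cultivated replicates 1 to 3, against 255, 257 and 243 CPM in control replicates 1 to 3, and the groups were far apart. Its log2 fold change was −1.67 ± 0.19 (SE, edgeR adjusted p = 0.00835), and it was called in all 16 alternatives. The 4 ammonium transporter loci of the list had positive log2 fold changes of 0.54 to 1.32 with overlapping groups. By edgeR, DESeq2 and limma-voom, 0 of them were called, and 0 had an unadjusted edgeR p under 0.05. The highest value was that of AMT1;2 (Os02g0620500), which held 137, 3 and 351 counts in control replicates 1 to 3. The 95% interval of its log2 fold change ran from −1.33 to 3.97.

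Among loci that break down the products, the asparaginase locus listed as ASNase1, whose enzyme releases ammonium from asparagine, rose. It stood at 24.4, 41.7 and 38.7 CPM in co-cultivated replicates 1 to 3, against 12.3, 11.8 and 15.0 CPM in control replicates 1 to 3 (log2 fold change 1.42 ± 0.23, SE, edgeR adjusted p = 0.0295). This call held without co-cultivated replicate 1 and was lost without any other single library, at edgeR adjusted p of 0.0735 and 0.0903 without co-cultivated replicates 2 and 3, and of 0.130, 0.0523 and 0.0502 without control replicates 1, 2 and 3. The glutamate decarboxylase locus listed as GAD3 (Os03g0236200), whose enzyme turns glutamate into gamma-aminobutyric acid, rose as well. It stood at 536, 316 and 369 CPM in co-cultivated replicates 1 to 3, against 121, 48.5 and 74.5 CPM in control replicates 1 to 3 (log2 fold change 2.32 ± 0.37, SE, edgeR adjusted p = 0.0273). This call was lost without co-cultivated replicate 1 or 3 or control replicate 3, at edgeR adjusted p of 0.104, 0.0671 and 0.0686.

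The other 5 groups of the list had 0 calls by edgeR, DESeq2 and limma-voom, and 3 of their 16 tested loci had an unadjusted edgeR p under 0.05, a share near the 20.4% of all tested loci. The glutamate dehydrogenase loci GDH1 and GDH2, whose enzymes join or release ammonium and 2-oxoglutarate directly, stood at log2 fold changes of −0.01 and −0.11. GDH3 was not tested, with 1, 3 and 4 counts in co-cultivated replicates 1 to 3 and 0, 0 and 1 in control replicates 1 to 3. The 7 carbon supply loci, phosphoenolpyruvate carboxylases and isocitrate dehydrogenases that feed the pathway with organic acids, were all positive, from 0.14 to 1.01. Of these 7 loci, 2 had an unadjusted edgeR p under 0.05, against 20.4% of all tested loci. The smallest p among them was that of the locus listed as PPC3 (Os01g0758300), at 1.01 ± 0.33 (SE, edgeR adjusted p = 0.153). The 4 aspartate aminotransferase loci ranged from −0.06 to 0.41, with the locus listed as AAT4 (Os06g0548000) at 0.39 ± 0.14 (SE, edgeR adjusted p = 0.189). AlaAT1 stood at 0.35 ± 0.27 (SE, edgeR adjusted p = 0.523). GLB, the PII protein that senses nitrogen status in plastids, stood at 0.17 ± 0.20 (SE, edgeR adjusted p = 0.679).

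**Figure D5:**
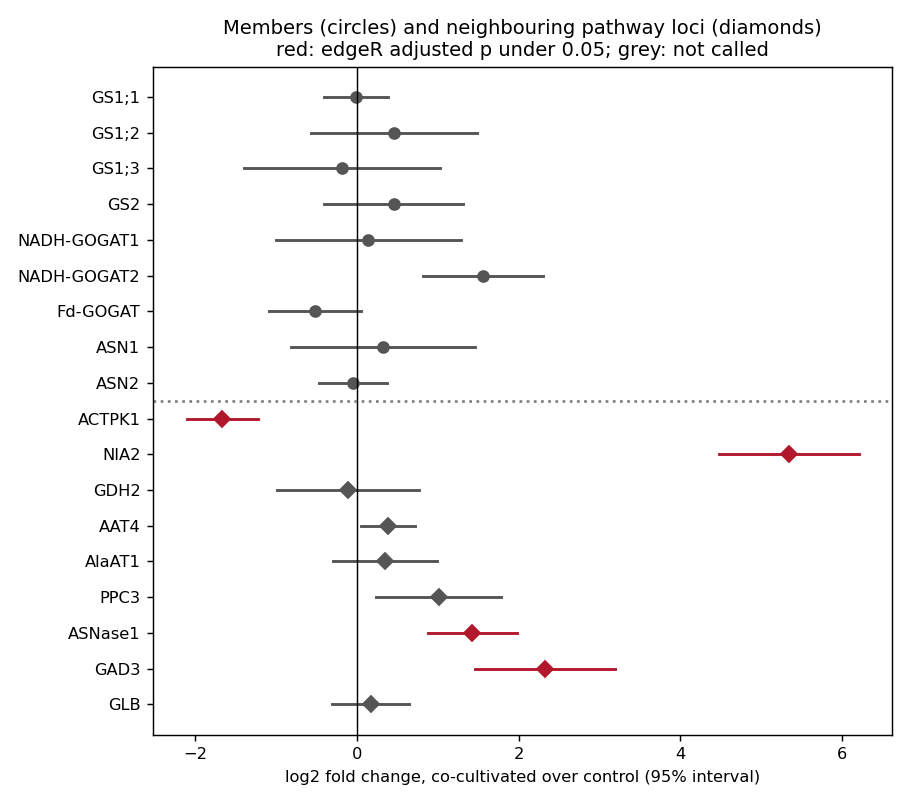
Log2 fold change of co-cultivated over control with its 95% interval (horizontal axis) for the 9 genes (circles, above the dotted line) and for 9 neighbouring loci (diamonds), those called and those with the smallest p in their group, in red where edgeR's adjusted p was under 0.05. The called loci are ACTPK1 at −1.67, NIA2 at 5.34, ASNase1 at 1.42 and GAD3 at 2.32, and 8 of the 9 genes have intervals that include 0.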

How the data were processed

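Libraries were stranded (dUTP) and made from poly-A RNA, per the labels' protocols. The authors deposited estimated counts per locus, 1 column for each library. Per the submitters' processing notes they used the build IRGSP-1.0 and DESeq2 1.28.1. The aligner, counter and filters were not given in the sources used here. For 7 of the 9 genes the deposited counts were whole in all libraries, and the others were within 0.01 of a whole number. Counts were rounded, as the design had set out for estimated counts. The columns matched the samples by label, with 0 columns left over.

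The fit used edgeR 4.0.16 in R 4.3.3 (TMM, filterByExpr, quasi-likelihood test with a group term, 4 residual degrees of freedom, two-sided), with Benjamini-Hochberg adjustment over 24615 loci and a threshold of 0.05. The fit moderates each locus's variance over all tested loci, which adds 3.277 prior degrees of freedom to the 4 residual ones. Intervals are 95% intervals from that fit and rest on 3 libraries per group and on this moderation. Ratios had 1 added to each count, and profiles used log2 CPM with a prior count of 2. The test was checked on simulated data. P-values of the fit rest on the spread between these boxes, moderated in that way. Alternatives were DESeq2 1.42.0, limma-voom (limma 3.58.1), 3 scalings, 2 filters, a replicate block, robust dispersions, removal of the 20 most abundant loci and removal of each library in turn. CPM values were computed from the deposited counts.

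The genes, lists and tests were chosen with earlier results of these data known. All 9 genes are named, with every called locus of the neighbour list and the locus of smallest p in each of its groups. Further loci are named as nearest profiles by rule. Others, as with NIR1, GDH1, GDH3, AMT1;2, ASNase2 and GAD1, were named after their values were seen. The gene table used (assembly ASM3414082v1) does not pair these identifiers with names. It has a symbol on the locus's chromosome for the 4 glutamine synthetase genes and Fd-GOGAT. For GS2 it has 2 entries, on chromosomes 2 and 4, so that match is ambiguous. The names of the other 4 genes rest on the list of identifiers. Neighbours without such an entry are given as "listed as". Sequences and coordinates are not used here.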

Additional observations from a re-analysis of the deposited data

How the results depend on the processing

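The number of the 9 genes called was 0 under 14 of 16 alternatives and 1 with DESeq2 and with no filter, in each case NADH-GOGAT2, at log2 fold changes of 1.58 and 1.56. Signs changed for 5 of the 9 genes with 1 library left out, none of them called. Over those fits GS1;1 ran from −0.078 to 0.075, GS1;3 from −0.62 to 0.10, NADH-GOGAT1 from −0.42 to 0.66, ASN1 from −0.037 to 1.01 and ASN2 from −0.15 to 0.082. The neighbouring locus GDH2 also changed sign, running from −0.42 to 0.17. GS1;1 was also positive with DESeq2 (0.0050) and RLE size factors (0.0069), and GS1;3 with limma-voom (0.084) and a replicate block (0.038). The neighbour list had 2 calls without co-cultivated replicate 3 or control replicate 3, 3 without any other single library and 4 to 6 otherwise. Over all loci, DESeq2 called 1483 higher and 938 lower against edgeR's 360 and 288, and leaving out 1 library gave 56 to 361 higher and 83 to 493 lower. The fewest higher calls came without co-cultivated replicate 1 (56) and control replicate 1 (65), then co-cultivated replicate 3 (170), control replicate 3 (204) and co-cultivated replicate 2 (226). Lower calls numbered 86, 83, 118, 195 and 126 in the same order, and 493 without control replicate 2. With a replicate block edgeR called 403 and 296, with 0 of the 9 genes and 4 neighbours. Replicate numbers are not known to pair boxes. Deviations of same-numbered libraries correlated over loci at 0.06, 0.15 and 0.17, and not every library correlated best with its own number. The 5 ratios moved by less than 1 SD, pooled over both groups, under every alternative tried. With 3 libraries in a group, leaving out 1 cannot move a difference by that much, so this bound says nothing about stability. With 1 library left out, the difference ran from −0.01 to 1.10 for ASN1 to ASN2. For GS1;2 to GS1;1 it ran from 0.17 to 1.07. A replicate block leaves the mean difference unchanged by arithmetic, so only its p can differ. For NADH-GOGAT1 to NADH-GOGAT2 the difference was −1.41 (exact sign-flip p = 0.25, the smallest that 3 pairs can give). GS1;3 and NADH-GOGAT2 held the fewest counts of the 9 genes, at most 173 and 177 in a library.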
